A study of Zea mays with 8 samples.

Results

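The maize 9-lipoxygenase genes LOX3, LOX4, LOX5 and LOX12 were followed in leaves treated with SLB and in mock-treated leaves. They were picked by identifier (LOX3 is Zm00001d033623, LOX4 is Zm00001d033624, LOX5 is Zm00001d013493 and LOX12 is Zm00001d041204), and make up 4 of the 44135 genes in the expression table. The names come from published assignments of maize lipoxygenases to B73 RefGen_v4 gene models. The deposited files carry identifiers alone, and the names were not checked against sequence. In the published study, SLB is short for southern leaf blight, a leaf disease caused by the fungus Cochliobolus heterostrophus.

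Lipoxygenases add oxygen to the plant fatty acids linoleic and linolenic acid. The 13-lipoxygenases feed jasmonate synthesis, while the 9-lipoxygenases oxygenate another carbon of the same fatty acids and open a separate branch. In maize, products of the 9-lipoxygenase branch include the cyclopentenone "death acids", known to accumulate in leaves infected by the southern leaf blight fungus and to be toxic to plant cells. LOX3 is known in maize for mutants whose resistance to several fungi and to nematodes is altered, LOX4 is its close paralogue, LOX5 has been tied to defence against insects, and LOX12 to resistance against a Fusarium stalk and seedling pathogen.

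Messenger RNA was sequenced from 8 leaf libraries. Plants of cultivar Golden Queen were 14 d old and greenhouse-grown, and the sampled tissue was leaf 4, emerged but still expanding. At 24 h, 4 libraries represent leaves that received SLB spores in suspension, and 4 represent control leaves that received 0.1% Tween 20. No transgene or mutation is named for either group, and the labels do not say whether a library came from 1 plant or several. Values are FPKM, fragments per kilobase of transcript and scaled to the mapped fragments of the library, so levels of different genes can be compared per length.

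Over all genes the summed FPKM ran from 706734 to 755209 in SLB libraries and from 1415310 to 2118480 in controls, so the scale of the libraries bears on every fold change. Differences were tested with limma on log2(FPKM + 1) over the 19407 genes that reached 1 FPKM in at least 4 libraries, with p-values adjusted over all of them by the Benjamini-Hochberg method and a threshold of 0.05. Of these genes 80.6% passed, 10863 higher in SLB libraries (56% of tested genes) and 4773 lower (24.6%). The log2 fold changes of the tested genes had a median of 0.69. Median-ratio scaling, which divides each library by its typical ratio to the others, moved that median to 0.02, with 7764 genes higher (40% of those tested) and 7455 lower (38.4%). Quantile normalization moved it to 0.21 (8650 or 44.6% higher, 6557 or 33.8% lower) and equal summed FPKM to 1.69 (14463 or 74.5% higher, 2340 or 12.1% lower). Leaf cell types could not be checked by markers, because no reference used here pairs the identifiers with gene symbols. In bulk leaf RNA, fewer cells of a type and less RNA per cell cannot be told apart.

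All 4 genes were expressed at 1 FPKM or more in each of the 8 libraries, so none entered the test through one group alone. On the deposited scale, LOX3, LOX4 and LOX5 were called higher with SLB treatment and LOX12 lower. These 3 rising and 1 falling among 4 members stand beside 56% rising and 24.6% falling among all tested genes on that scale. The calls of LOX3 and LOX12 each ended under 1 of the 3 rescalings, and the LOX5 groups overlapped. The summed FPKM of the 4 genes was 312 ± 41.3 (SD, n = 4) with SLB and 67.7 ± 8.94 (SD, n = 4) without it, with no overlap between 269 to 366 and 55.3 to 76.7. Of single tested genes, 53.3% had no overlap in the higher direction. LOX4 held 69.9% of this sum with SLB and 61.8% without it, so the sum largely restates LOX4. Its ratio of means, 4.61, depends on scale and was 10.8 when taken as a share of each library's summed FPKM.

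**Figure D1:**
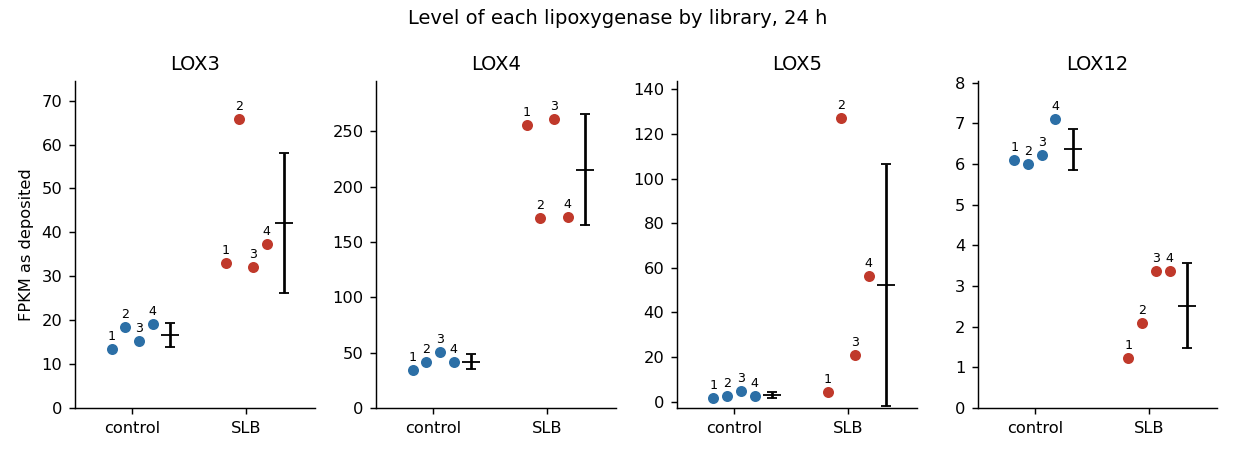
FPKM of the 4 lipoxygenases in each control (blue) and SLB (red) library, with the replicate number above each point and the mean and SD beside each group; each panel has its own scale. LOX3 and LOX4 lie higher in all SLB libraries, LOX12 lies lower, and LOX5 in SLB libraries spreads from 4.58 to 127 FPKM.

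LOX4 was the most abundant of the 4 genes in every library. It stood at 255, 171, 262 and 172 FPKM in SLB replicates 1 to 4. In controls it stood at 34.2, 41.8, 50.4 and 41.1 FPKM. The groups did not overlap, and the lowest SLB library was well above the highest control. Mean levels were 215 ± 50.1 FPKM (SD, n = 4) in the SLB group and 41.9 ± 6.63 FPKM (SD, n = 4) in controls, a ratio of 5.14. The log2 fold change of LOX4 was 2.32 (SE 0.19, limma adjusted p = 2.8e-06), above that of 89.2% of all tested genes (79.5% with a pseudocount of 0.1). Its call held under each scaling tried, with log2 fold changes of 1.49 with median-ratio scaling, 2.52 with quantile normalization and 3.57 with equal summed FPKM.

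LOX3, whose identifier directly precedes that of LOX4, had a smaller fold change. SLB replicates 1 to 4 had 33.1, 65.9, 32.2 and 37.3 FPKM of LOX3, against 13.5, 18.5, 15.2 and 19.1 FPKM in controls. The groups were separate, with SLB replicate 2 far above the other 3 SLB libraries. The means were 42.1 ± 16 FPKM (SD, n = 4) and 16.6 ± 2.67 FPKM (SD, n = 4), a ratio of 2.54. Its log2 fold change was 1.25 (SE 0.23, limma adjusted p = 0.000713), above that of 65.9% of tested genes (58.9% with a pseudocount of 0.1) and 0.55 above their median. That call ended with median-ratio scaling, where the log2 fold change was 0.44 (SE 0.24, limma adjusted p = 0.123). After quantile normalization it was 0.93 (limma adjusted p = 0.0111), and with equal summed FPKM 2.46 (limma adjusted p = 3.99e-06).

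LOX3 and LOX4 are neighbours in the RefSeq annotation of the later maize assembly (Zm-B73-REFERENCE-NAM-5.0), with 0 genes starting between them. How fragments that match both were assigned is not given in the sources used here, so the split between them is uncertain. Added together, they reached 289, 237, 294 and 210 FPKM in SLB replicates 1 to 4 and 47.7, 60.3, 65.6 and 60.2 FPKM in controls. The groups of this sum did not overlap, as was so for 53.3% of single tested genes in the higher direction. Whether shared fragments were split, dropped or counted for both genes would also bear on the sum. The sum was 4.4 times as high in SLB libraries as in controls by the ratio of the means.

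The ratio of LOX4 to LOX3 was higher in 3 of the 4 SLB libraries than in any control. LOX4 was 7.73, 2.6, 8.12 and 4.62 times as abundant as LOX3 in SLB replicates 1 to 4, and 2.54, 2.26, 3.31 and 2.16 times in controls. SLB replicate 2 lay within the control range. The difference in log2 fold change, LOX3 minus LOX4, was -1.07 (two-sided exact permutation p = 0.0571, adjusted p = 0.0857 over the 6 pairs of members). Leaving out each library in turn gave exact permutation adjusted p-values of 0.0429 to 0.171. The one under 0.05 came from leaving out SLB replicate 2, the SLB library inside the control range (-1.40). The 6 pairs include LOX3 and LOX4 with LOX12, whose p was fixed beforehand, as described below. Their presence lowers the adjusted p of the other pairs, so that value is not read as a pass.

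LOX5 was the lowest of the 4 genes in every control library and had the highest fold change of the 4 with all libraries included, with a wide spread. It had 4.58, 127, 21.1 and 56.3 FPKM in SLB replicates 1 to 4. Control libraries had 1.58, 2.71, 4.86 and 2.4 FPKM. SLB replicates 2 to 4 lay above all controls, and SLB replicate 1 lay inside the control range, just under control replicate 3. The means were 52.3 ± 54.4 FPKM (SD, n = 4) and 2.89 ± 1.4 FPKM (SD, n = 4), and the medians 38.7 and 2.56 FPKM, a ratio of medians of 15.1. The log2 fold change of LOX5 was 3.05 (SE 0.82, limma adjusted p = 0.00637), with a 95% confidence interval from 1.21 to 4.90. It lay above that of 94.8% of tested genes (90.2% with a pseudocount of 0.1). Its size rested on single libraries: it was 2.37 without SLB replicate 2 (limma adjusted p = 0.0109), where LOX4 was at 2.42, and 3.88 without SLB replicate 1 (limma adjusted p = 0.000193). LOX5 passed the threshold under each scaling, the lowest log2 fold change being 2.36 after median-ratio scaling (limma adjusted p = 0.0248).

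**Figure D2:**
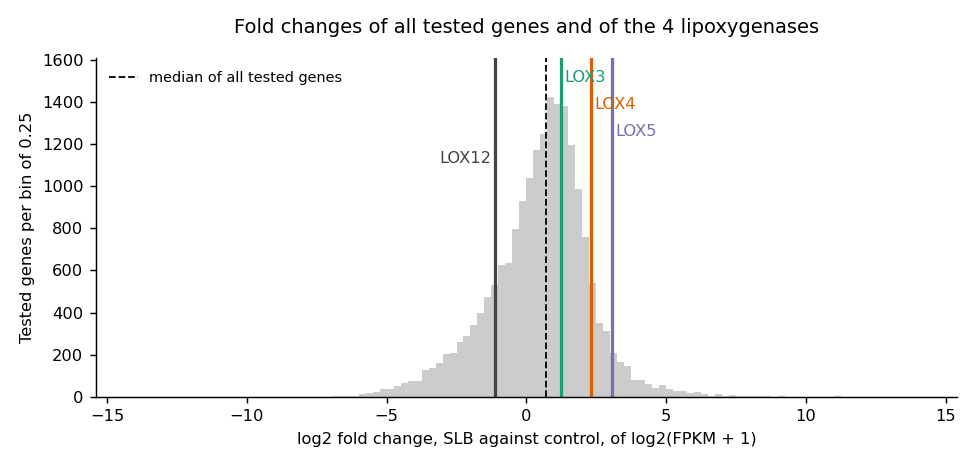
Histogram of the log2 fold changes of the 19407 tested genes (SLB against control, on log2(FPKM + 1)), with lines at the 4 lipoxygenases and a dashed line at the median of all tested genes, 0.69. LOX5 at 3.05 and LOX4 at 2.32 lie on the right flank, LOX3 at 1.25 within the bulk and LOX12 at -1.12 on the left flank.

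LOX12 went the other way. SLB replicates 1 to 4 had 1.24, 2.09, 3.36 and 3.37 FPKM of LOX12. The control libraries had 6.1, 6.01, 6.22 and 7.11 FPKM. Every SLB library lay below every control, and the control values lay close together. The means were 2.51 ± 1.04 FPKM (SD, n = 4) and 6.36 ± 0.509 FPKM (SD, n = 4), which makes the control mean 2.53 times the SLB mean. The log2 fold change of LOX12 was -1.12 (SE 0.22, limma adjusted p = 0.00102), below that of most tested genes (17.1% at or below it). The pseudocount of 1 compresses changes at such low levels, and with 0.1 the log2 fold change was -1.40. Median-ratio scaling gave -1.76 and quantile normalization -1.74 (limma adjusted p of 4.8e-05 and 5.04e-05). With equal summed FPKM the call of LOX12 ended, at -0.13 (SE 0.27, limma adjusted p = 0.668). The median of all tested genes was then 1.69, and LOX12 minus that median was -1.81, as on the deposited scale. That likeness was fixed beforehand, since 1 factor per library moves LOX12 and the median nearly alike. It is thus no support for the fall. As a share of each library's summed FPKM, LOX12 held 0.000347% ± 0.00015 (SD, n = 4) with SLB and 0.000366% ± 6.46e-05 (SD, n = 4) without it, with overlapping groups.

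**Figure D3:**
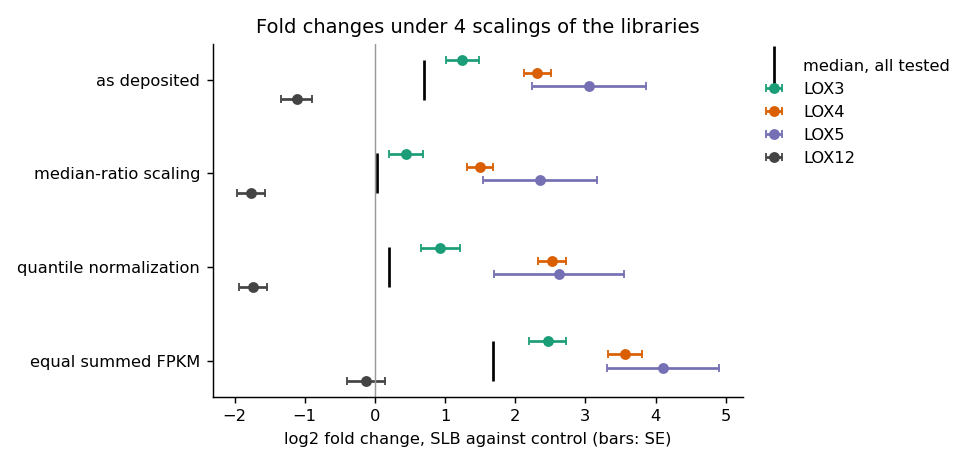
Log2 fold change of each lipoxygenase (points, with SE bars) under the deposited scale and 3 rescalings of the libraries, with black ticks at the median of all tested genes. The points of LOX3, LOX4 and LOX5 stay right of both 0 and the median, with LOX3 down to 0.44 after median-ratio scaling. LOX12 moves from -1.12 to -0.13 with equal summed FPKM and stays left of the median, which by construction moves nearly alike.

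Ranks within a library do not change when a library is multiplied by 1 factor. By rank among the tested genes, LOX4 stood higher than 83.1% to 88.1% of them in controls and 96.7% to 98% in SLB libraries. LOX3 moved from between 69.7% and 75.5% to between 79.9% and 90.5%. LOX12 moved down, from between 50.4% and 57% to between 7.93% and 24.7%. In these 3 genes the ranks of the groups did not overlap. Among all tested genes the ranks did not overlap for 40.2% in the higher direction and 32.5% in the lower one. LOX5 ranked above 26.6% to 44.3% of tested genes in controls and above 32.2% to 95.4% in SLB libraries, with overlap. In FPKM, groups without overlap were found for 53.3% of tested genes in the higher direction and 22.2% in the lower one.

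The order of the 4 genes differed between the groups. In each control library it was LOX4, LOX3, LOX12 and LOX5 from high to low. In each SLB library LOX4 was highest and LOX12 lowest. Between them, LOX5 and LOX3 could not be ordered, since LOX5 was above LOX3 in 2 of 4 SLB libraries, replicates 2 and 4.

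As shares of the summed FPKM of the 4 genes, LOX4 held 61.8% ± 2.85 (SD, n = 4) in controls and 69.9% ± 18.3 (SD, n = 4) in SLB libraries. These shares overlapped, running from 46.7% to 86.8% in SLB libraries. LOX3 held 24.6% ± 3.41 (SD, n = 4) in controls and 13.3% ± 3.49 (SD, n = 4) in SLB libraries. LOX12 went from 9.51% ± 1.34 (SD, n = 4) to 0.824% ± 0.394 (SD, n = 4). The SLB shares of both LOX3 and LOX12 lay below every control share. LOX5 held 2.85% to 6.34% in controls, and 1.56%, 34.7%, 6.62% and 20.9% in SLB replicates 1 to 4. The larger the LOX5 share of an SLB library, the smaller its LOX4 share, a relation that shares of 1 total favour by construction.

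**Figure D4:**
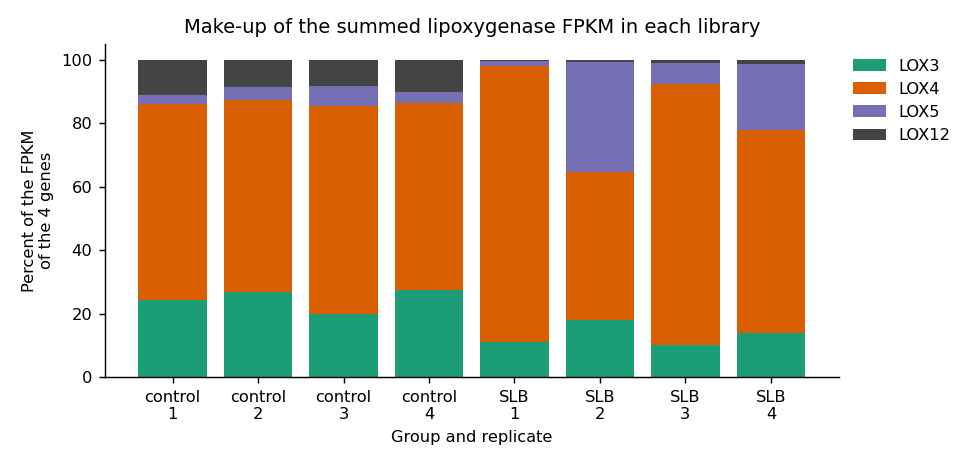
Stacked bars of the percent of the summed FPKM of the 4 lipoxygenases taken by each gene, for the 4 control and 4 SLB libraries. The control bars look alike, with LOX12 between 8.11% and 11%, while among SLB bars the LOX5 part runs from 1.56% to 34.7% and LOX12 is at most 1.25%.

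The members were set against each other within libraries, which cancels a factor common to a library apart from the pseudocount. For the 6 pairs, the difference of 2 members' log2(FPKM + 1) was compared between groups by a two-sided exact permutation test, whose smallest p is 0.0286. The log2 fold changes of LOX3, LOX4 and LOX5 exceeded that of LOX12 by 2.36, 3.43 and 4.17, and in each case 4 of 4 SLB libraries lay above all controls. Each of these 3 pairs had the smallest exact permutation p, 0.0286, and an adjusted p of 0.0571 over the 6 pairs, which does not pass the threshold. For LOX3 and LOX4 with LOX12 this p was fixed beforehand, as each gene alone had groups without overlap, in opposite directions. Those tests thus add nothing to the single genes. Any gene without overlap in the higher direction (53.3% of tested genes) paired with one in the lower direction (22.2%) gives the same p. LOX5 alone had overlapping groups, so its pair with LOX12 was not fixed in this way. Leaving out each library in turn gave exact permutation adjusted p-values of 0.0429 to 0.0857 for the pairs of LOX3 and LOX4 with LOX12, and of 0.0429 to 0.114 for LOX5 with LOX12. The value of 0.0429, without SLB replicate 1 or 2, arose because another pair then also had the smallest p, and adds nothing on these 3 pairs. LOX3 minus LOX5 was -1.81 (exact permutation p = 0.143, adjusted p = 0.171). Leaving out each library gave it exact permutation adjusted p-values of 0.0429 to 0.309. The one under 0.05 came without SLB replicate 1 (-2.54), in which LOX5 lay inside the control range. That value was lowered by the pairs of LOX3 and LOX4 with LOX12, fixed beforehand, and is not read as a pass. LOX4 minus LOX5 was -0.74 (exact permutation p = 0.543, adjusted p = 0.543), and 0.048 without SLB replicate 2. A p that misses the threshold does not show that 2 members responded alike.

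Spread between libraries set LOX5 apart. Over the 4 SLB libraries the SD of log2(FPKM + 1) was 1.94 for LOX5, 0.47 for LOX3, 0.46 for LOX12 and 0.34 for LOX4, where the median over all tested genes was 0.20. A larger SD in SLB libraries than that of LOX5 was found in 4 of the 19407 tested genes. In controls the SD of LOX5 was 0.49, above that of 84.5% of tested genes, and that of LOX12 was 0.097, above that of 8.11%. LOX3 and LOX4 had control SDs of 0.22 each, under the median of 0.26.

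**Figure D5:**
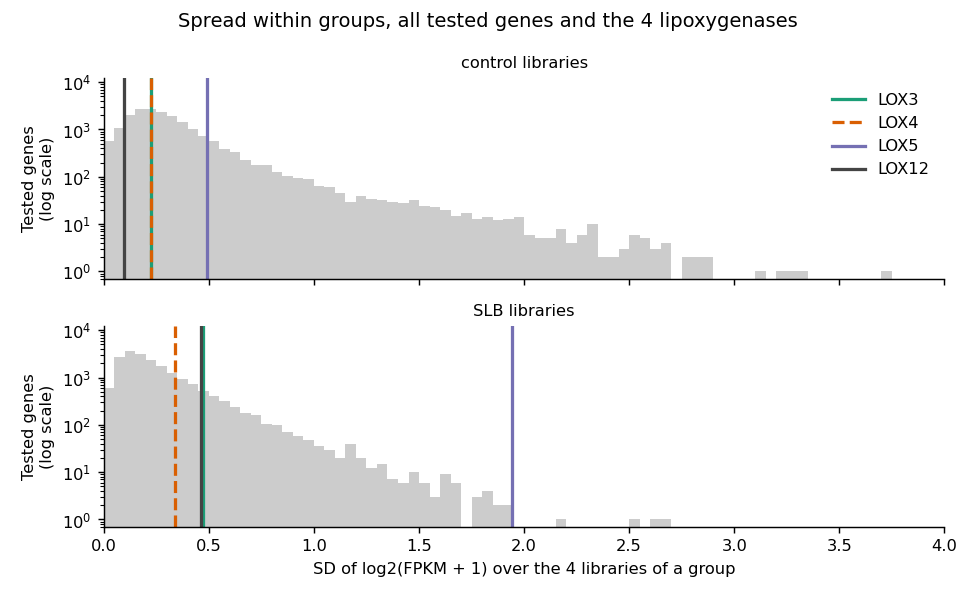
Number of tested genes (log scale) by their SD of log2(FPKM + 1) over the 4 control libraries (top) and the 4 SLB libraries (bottom), with lines at the lipoxygenases; LOX3 and LOX4 coincide in the top panel. LOX5, at 1.94, lies at the far right end of the SLB distribution, while in controls, at 0.49, it lies within the upper part.

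The SLB libraries were not ordered alike by the members. LOX5 was highest in replicate 2, then 4, 3 and 1, and LOX3 was also highest in replicate 2. LOX4 was lowest in replicate 2 and highest in replicate 3, and LOX12 was lowest in replicate 1. Over all tested genes, replicate 2 was the highest SLB library for 18.4% and the lowest for 22.5%, so it did not stand high in general. The order of LOX5 was found in 778 tested genes (4.01%), LOX5 included. That is about the share each possible order would have if all orders were equally common.

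Likeness was measured as Pearson's r of log2(FPKM + 1) over the 8 libraries, which share their group difference, so r is given as a description. LOX4 followed a common pattern, with r above 0.95 for 6362 other tested genes (32.8%). The gene most like it was Zm00001d049260 (r = 0.999), at 32 ± 10.7 FPKM (SD, n = 4) with SLB and 1.33 ± 0.739 FPKM (SD, n = 4) without it. For LOX3, 55 genes had r above 0.95, led by Zm00001d014669 (r = 0.986), at 16.6 ± 2.64 FPKM (SD, n = 4) and 10.7 ± 0.744 FPKM (SD, n = 4). LOX12 had 46 such genes, led by Zm00001d018595 (r = 0.988), which went from a control level of 36.8 ± 0.561 FPKM (SD, n = 4) to 25.8 ± 4.57 FPKM (SD, n = 4). LOX5 had 5, with a highest r of 0.982. Neither the files nor the reference give names to these genes.

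Genes with nearby identifiers were counted beside the 56% of all tested genes that rose and the 24.6% that fell. Of the 10 identifiers within 5 of LOX3 and LOX4, 9 were in the table and 4 were tested, of which 1 rose and 1 fell in limma. Around LOX5, 5 of 10 neighbours were tested, and 3 rose and 1 fell. Around LOX12, 2 of 7 listed neighbours were tested, and 1 rose and 1 fell. Such small counts cannot be told from the shares over all tested genes. Whether identifier numbers follow gene order along the B73 RefGen_v4 chromosomes was not checked. A list of 24 further oxylipin gene symbols, other lipoxygenases and jasmonate synthesis genes among them, could not be counted, because 0 of the reference entries carry a deposited identifier.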

How the data were processed

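Messenger RNA of 8 maize leaf libraries was measured with a stranded library kit, per the labels' protocols. FPKM of 44135 identifiers were deposited as 1 table, with a column for each library. The submitters' processing notes name Trimmomatic 0.32 and the genome build B73 RefGen_v4. Which aligner, quantifier, annotation and scaling the authors applied is not given in the sources used here. Reads of cultivar Golden Queen were thus set against the B73 genome. Columns were matched to libraries by the deposited column list, and 0 columns were left unused. Depth is unknown: low values shared no single step, since the fullest bin of log2 ratios held 1.23% to 2.86% of genes over 28 library pairs. No counting interval can be given. No pair of libraries was a duplicate, as at most 0.038% of genes at 1 FPKM or more had equal values.

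Values were tested as log2(FPKM + 1) with limma 3.58.1 in R 4.3.3 (group as the only term, empirical Bayes with a trend, two-sided, Benjamini-Hochberg adjustment over all 19407 tested genes). Fold changes on this scale understate changes of low genes. Shares, ranks and exact permutation tests were computed in Python (3.11.15; pandas 2.3.3). The limma step was tested before use on simulated data in which 200 of 19407 genes were changed. It recovered 70% of 2-fold and 86% of 4-fold changes, with 1.89% false among the calls. The simulation had few changed genes and no shift in library scale, unlike these data, where 80.6% passed. It therefore does not cover the effect of scaling. Separate plants are not stated for the libraries, so p-values reflect only how far these libraries vary, which may be technical.

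All 4 members are named whatever their values; beyond them the rule names, for each member, the tested gene with the highest r, printing at most 2 that rose and 2 that fell, the 2 with the higher r being kept among those that rose. The members and lists were chosen with earlier results of these data known. The alternatives were a pseudocount of 0.1 or 0.5, no filter or one at 5 FPKM, 3 rescalings, no trend, a replicate block and leaving out each library. Sequences were not used here.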

Additional observations from a re-analysis of the deposited data

Results flagged for a closer look

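Of 22 sets of 4 values checked, 1 had a library far from the rest, where chance gives about 1 in 20; the values checked are not independent. LOX3 was at 65.9 FPKM in SLB replicate 2 and between 32.2 and 37.3 FPKM in the other SLB libraries. Without that library the log2 fold change of LOX3 was 1.01 (SE 0.16, limma adjusted p = 0.000466), against 1.25 with it. The same library had the highest LOX5 level, 127 FPKM, and the lowest LOX4 level of the SLB group, 171 FPKM.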

How the results depend on the processing

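Adding LOX3 and LOX4 together was chosen after the data were seen and gave a log2 fold change of 2.11 (SE 0.15), against 1.25 for LOX3 and 2.32 for LOX4. LOX4 kept its direction and its call under all 17 settings (1.49 to 3.57), and LOX5 under all 16 that could be run (2.36 to 4.11); at a filter of 5 FPKM LOX5 was not tested. LOX3 lost its call with median-ratio scaling (0.44) and LOX12 with equal summed FPKM (-0.13), and each kept its call in the other 16 settings. For LOX12 the filter of 5 FPKM is no support, since LOX12 passed it through the controls alone (at most 3.37 FPKM in SLB libraries). The 2 scalings that ended a call multiply each library by its own factor. Which scale is right was not tested. Genes lower in SLB libraries numbered 7455 and 2340 under those scalings, against 4773.

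Leaving out 1 library gave log2 fold changes of 1.01 to 1.35 for LOX3, 2.21 to 2.42 for LOX4, 2.37 to 3.88 for LOX5 and -1.24 to -0.92 for LOX12. The differences ran from -1.40 to -0.86 for LOX3 minus LOX4, -2.54 to -1.36 for LOX3 minus LOX5, 2.09 to 2.59 for LOX3 minus LOX12, -1.65 to 0.048 for LOX4 minus LOX5, 3.14 to 3.65 for LOX4 minus LOX12 and 3.44 to 4.79 for LOX5 minus LOX12. LOX4 minus LOX5 thus changed sign without SLB replicate 2; the cause was not tested. Called genes numbered 13026 to 15305; fewer genes reach the filter with 7 libraries, and calls were also lost among genes still tested.

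After subtraction of group means, libraries of the same number had correlations of 0.0485, 0.0152, 0.126 and 0.112. These were all positive but low, and the numbers were not treated as pairs. SLB replicates 2, 3 and 4 and control replicates 3 and 4 correlated best with their own number, and the other libraries did not. A replicate block on the number gave 15617 called genes, and limma adjusted p-values were 0.000634 for LOX3, 5.23e-05 for LOX4, 0.00519 for LOX5 and 0.00174 for LOX12. Depth is unknown, so the counting error of LOX12 and of LOX5 in controls, both at a few FPKM, is not shown by these values.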
